A study of Rattus norvegicus with 6 samples.

Results

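Endothelial cells line the capillaries that run through every islet, and 10 genes known as their markers were followed in beta cell-enriched preparations of rat pancreas: Pecam1, Cdh5, Emcn, Plvap, Vwf, Kdr, Flt1, Tek, Tie1 and Apold1. Members were the probe sets whose only annotated gene was one of these, and 9 of the 10 had one, with 1 probe set each, out of 14506 named genes. Vwf is not analysed here. Total RNA came from male Wistar rats in 2 groups of 3 arrays, suckling pups at postnatal 20d and young adults (about 2 months, 250 to 280 g), without any genetic change or drug treatment in either. At both ages the cells had been placed in primary culture and enriched by FACS on FSC, SSC and autofluorescence, which select for beta cells without an antibody against any other cell type. The labels name the arrays of an age as biological replicates and do not give the number of animals behind each, so the p-values measure the spread between these preparations. Array precision is limited by the 3 arrays per age.

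Islet endothelium is fenestrated, and it grows and is kept in place by vascular endothelial growth factor (VEGF) made by beta cells. VEGF acts through the receptor kinases Kdr and Flt1, while angiopoietins act through the receptor kinase Tek and its partner Tie1. Endothelial cells hold to each other through Cdh5 and Pecam1, and capillary endothelium carries the sialomucin Emcn and the diaphragm protein Plvap.

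Signals were processed by the authors with RMA, which corrects background, quantile-normalizes the arrays and summarises each probe set on a log2 scale, where 1 unit means 2-fold. The arrays were alike in distribution, with medians between 6.35 and 6.39 and first quartiles between 4.91 and 4.94. There are no detection calls, so whether a signal at or under the first quartile exceeds background is unknown. Levels are compared within a gene only, since probe sets differ in response. The labelled cell type was present by its markers: Ins1 and Ins2 had log2 signals between 13.81 and 14.35 on all arrays. Signals of acinar enzyme genes were also near the top of the scale, with the mean of 10 of them between 14.25 and 14.49. Of 7 measured beta cell markers, 5 were higher in adult (limma, adjusted p under 0.05), all by at least 2-fold. Of all genes 11.8% were called higher. Iapp, at 2.04-fold, was 1 of the 5, while Ins1 and Ins2 did not pass. Whether beta cell content was equal at the ages was not tested. Secretory granule genes of all endocrine cells (12, here the pan-endocrine list) had a mean 0.92 higher in adult (10.84 ± 0.35 against 9.92 ± 0.51, SD, n = 3), a shift that runs opposite to that of the endothelial genes below.

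All 9 measured endothelial markers were lower in adult than at day 20 (limma, Benjamini-Hochberg adjusted p under 0.05 over 14506 genes), where 10.9% of all genes were. Of the 9, 8 fell by at least 2-fold, against 1.34% of all genes. Every day 20 array lay above every adult array for each of the 9, which was so for 18.7% of all genes. The median log2 difference, adult minus day 20, was -1.63 over the 9 and 0.01 over all genes. In bulk RNA such as this, fewer endothelial cells and less RNA of these genes per cell cannot be told apart.

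**Figure D1:**
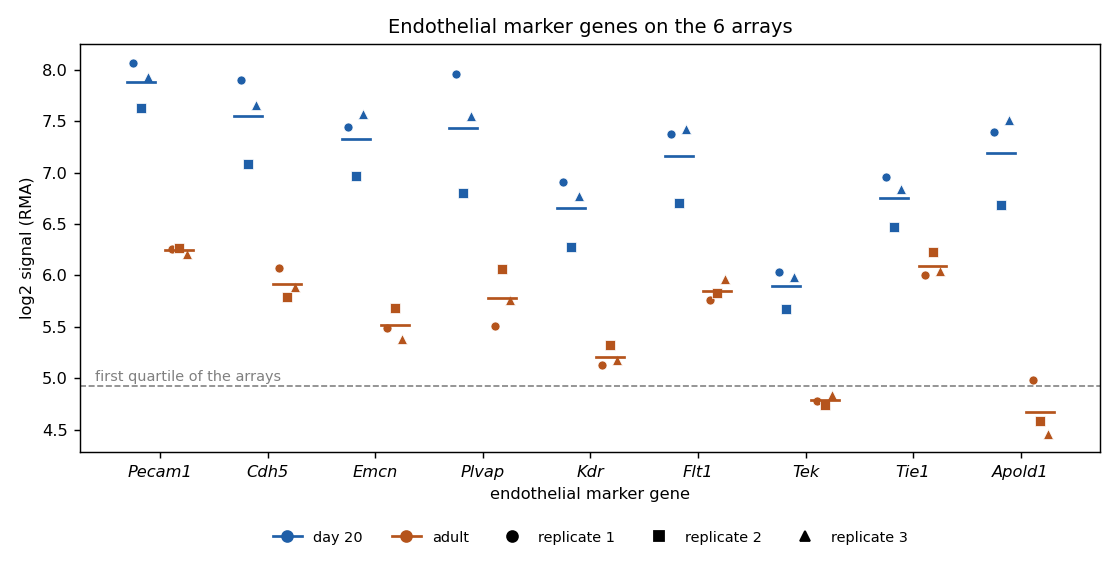
Log2 RMA signal (vertical axis) of the 9 measured endothelial marker genes (horizontal axis) on the 3 day 20 arrays (blue) and the 3 adult arrays (orange); marker shapes give the replicate, short lines the mean of an age, and the dashed line the mean first quartile of the arrays. The ages do not overlap for any gene, replicate 2 is the lowest day 20 array for all 9, and the adult means of Tek (4.79) and Apold1 (4.67) lie below the dashed line.

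The members Pecam1, Cdh5, Emcn and Plvap, which encode junction and surface proteins, were all at least 3-fold higher at day 20. Pecam1 (CD31, probe set 10940659), an adhesion molecule of endothelial junctions that leukocytes and platelets also carry, had log2 signals of 6.26, 6.27 and 6.21 on adult arrays 1 to 3 and of 8.07, 7.63 and 7.93 on day 20 arrays 1 to 3. The adult arrays lay within 0.05 of each other, and the lowest day 20 array was 1.36 above the highest of them. The difference was -1.63 ± 0.12 (standard error), which is 3.10-fold higher at day 20 (95% interval 2.58 to 3.72, adjusted p = 7.8e-05). Cdh5 (VE-cadherin, probe set 10809048), the cadherin of endothelial adherens junctions, had 6.07, 5.79 and 5.89 in adult and 7.90, 7.08 and 7.66 at day 20. Its difference was -1.63 ± 0.19 (3.09-fold, 95% interval 2.30 to 4.17, adjusted p = 6.8e-04), with a gap of 1.01 between the ages.

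Emcn (endomucin, probe set 10819305), a surface sialomucin of capillary and venous endothelium, had log2 signals of 5.49, 5.68 and 5.38 in adult and 7.44, 6.97 and 7.57 at day 20. No adult array came within 1.29 of a day 20 array, and the gene was 3.51-fold higher at day 20 (95% interval 2.74 to 4.48, adjusted p = 1.8e-04). Plvap (probe set 10790804), which forms the diaphragms that span fenestrae and caveolae, was the most variable member. Its adult signals were 5.51, 6.06 and 5.76, and those of day 20 were 7.96, 6.80 and 7.55, a range of 1.16 within day 20. The 3.16-fold difference had a correspondingly wide 95% interval, 2.09 to 4.78 (adjusted p = 0.0028).

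Both VEGF receptors among the members fell. Kdr (VEGFR2, probe set 10940650), the main signalling receptor of VEGF-A, had log2 signals of 5.13, 5.32 and 5.18 in adult and 6.91, 6.28 and 6.77 at day 20. It was 2.72-fold higher at day 20 (95% interval 2.14 to 3.47, adjusted p = 4.7e-04). Its adult mean of 5.21 was only 0.29 above the mean first quartile of the arrays, so the adult signal was weak. Flt1 (VEGFR1, probe set 10756418), which binds VEGF-A, VEGF-B and placental growth factor, had 5.76, 5.83 and 5.96 in adult and 7.37, 6.70 and 7.42 at day 20. Day 20 replicates 1 and 3 differed by 0.05 and replicate 2 lay 0.70 below their mean. Flt1 was 2.49-fold higher at day 20 (95% interval 1.88 to 3.30, adjusted p = 0.0014).

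Both receptors of the angiopoietin system fell. Tek (TIE2, probe set 10869946), the receptor that angiopoietins bind, had log2 signals of 4.78, 4.74 and 4.84 in adult and 6.03, 5.67 and 5.98 at day 20. All 3 adult values lay under the first quartile, so the measured 2.16-fold difference (95% interval 1.82 to 2.57, adjusted p = 3.4e-04) may be too small. Tie1 (probe set 10879278), a related receptor without a well-established ligand of its own that modulates Tek, had 6.0, 6.23 and 6.04 in adult and 6.96, 6.47 and 6.84 at day 20. Its ages were separated by 0.24 only, between adult replicate 2 and day 20 replicate 2. The difference was -0.67 ± 0.14 (1.59-fold, 95% interval 1.28 to 1.97, adjusted p = 0.0086), and it was the member that fell by less than 2-fold.

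Apold1 (probe set 10859262), an early-response gene of endothelial cells also known as VERGE, had the widest difference. Its log2 signals were 4.98, 4.58 and 4.46 in adult and 7.39, 6.68 and 7.51 at day 20, with a gap of 1.70. Day 20 was 5.75-fold higher as measured (95% interval 4.08 to 8.10, limma adjusted p = 1.8e-04). The adult mean lay 0.25 below the mean first quartile, so the measured ratio may be too small. In the order of falls over all genes Emcn ranked 46, Plvap 58, Pecam1 60, Cdh5 61, Kdr 87, Flt1 108 and Tie1 499. Apold1 and Tek are given no rank, since their adult means lay under the first quartile and their measured falls may be too small. The 95% intervals of Apold1 (-3.02 to -2.03) and Tie1 (-0.97 to -0.36) did not overlap on the log2 scale, while those of Pecam1, Cdh5, Emcn, Plvap, Kdr and Flt1 all overlapped each other. Differences between members in the size of the fall were not tested.

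**Figure D2:**
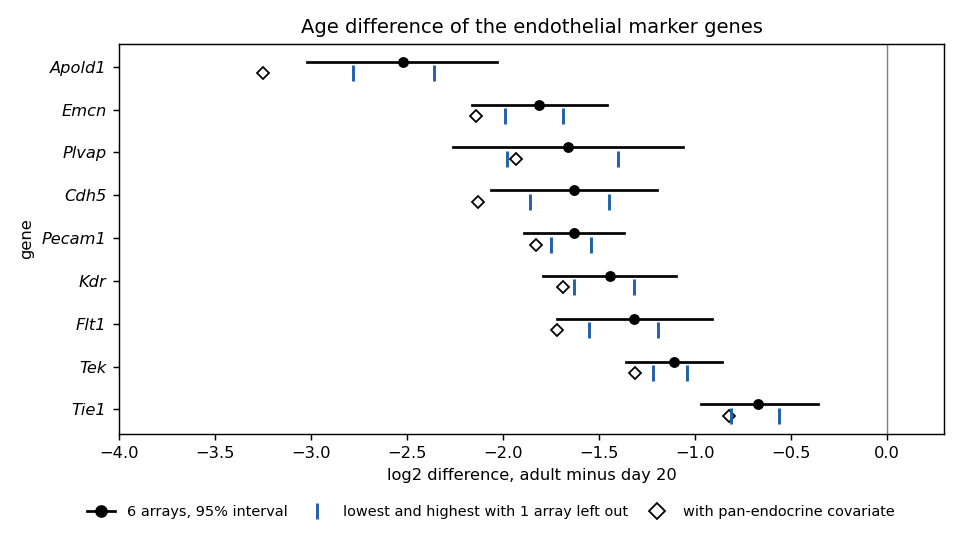
Log2 difference, adult minus day 20 (horizontal axis), of the 9 endothelial marker genes (vertical axis): points and lines give the limma estimate over 6 arrays with its 95% interval, blue ticks the lowest and highest estimate with 1 array left out, and diamonds the estimate when the mean of the pan-endocrine genes is a covariate. All estimates lie below 0, from -0.67 for Tie1 to -2.52 for Apold1, and each diamond lies to the left of its point.

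The upstream sequences of the members were read from RefSeq (build GRCr8), where 6 of the 9 matched by gene identifier. The window was the 250 bases before the annotated start. It was searched on both strands for CAGGAA and CCGGAA, core words bound by ETS factors, the family to which the endothelial regulators Erg and Fli1 belong. Of the 6 windows 4 held a word, as did 34.4% of the 33469 promoters in the table. These 4 are printed 5′ to 3′ on the gene's strand with the words, or their reverse complements, in capitals. They lie at chr4:169552349-169552598 (plus strand) for Apold1, chr2:228564289-228564538 (plus) for Emcn, chr14:32571813-32572062 (plus) for Kdr and chr16:18231280-18231529 (minus) for Plvap.
Apold1: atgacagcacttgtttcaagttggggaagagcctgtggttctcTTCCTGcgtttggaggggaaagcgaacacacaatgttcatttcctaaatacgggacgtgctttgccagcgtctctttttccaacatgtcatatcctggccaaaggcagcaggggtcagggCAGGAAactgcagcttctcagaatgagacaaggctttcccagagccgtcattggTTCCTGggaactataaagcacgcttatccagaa
Emcn: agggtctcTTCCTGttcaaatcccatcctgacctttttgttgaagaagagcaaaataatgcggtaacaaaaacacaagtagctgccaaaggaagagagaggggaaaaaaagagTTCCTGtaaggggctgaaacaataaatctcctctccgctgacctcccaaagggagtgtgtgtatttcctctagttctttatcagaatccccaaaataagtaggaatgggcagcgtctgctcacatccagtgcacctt
Kdr: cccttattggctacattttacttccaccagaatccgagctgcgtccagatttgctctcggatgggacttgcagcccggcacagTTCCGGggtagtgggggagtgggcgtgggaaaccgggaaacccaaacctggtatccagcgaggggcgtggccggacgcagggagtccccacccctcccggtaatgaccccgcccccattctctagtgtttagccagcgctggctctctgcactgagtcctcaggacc
Plvap: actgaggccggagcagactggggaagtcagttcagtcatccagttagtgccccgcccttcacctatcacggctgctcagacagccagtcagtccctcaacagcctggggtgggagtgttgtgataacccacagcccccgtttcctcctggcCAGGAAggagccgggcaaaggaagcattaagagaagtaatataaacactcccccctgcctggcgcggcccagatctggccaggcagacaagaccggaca
Apold1 held 3 words, Emcn held 2, and Kdr and Plvap held 1 each. A link between the words and the fall with age was not tested. Neither CAGGAA nor CCGGAA was in the windows of Flt1 and Tie1. The GATA word AGATAA was in 0 of the 6 windows against 10.3% of all promoters. Other forms of ETS or GATA words were not searched for and may be present. The TATA box word TATAAA was in 3 of 6 (Apold1, Flt1 and Plvap) against 12.9%. A SOX word, ACAATG or ACAAAG, was in 2 of 6 (Apold1 and Tie1) against 25.3%. Such short words occur often, and a match is a description of the letters, not a binding site.

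Within day 20 the members moved together too, and 1 array set much of their spread. Replicate 2 was the lowest day 20 array for 9 of 9 members, against 32.9% of all genes. It lay below the mean of replicates 1 and 3 by between 0.33 for Tek and 0.96 for Plvap on the log2 scale. The mean of the 9 members was 7.34, 6.70 and 7.25 on day 20 arrays 1 to 3, and 5.55, 5.61 and 5.52 on adult arrays 1 to 3, so even the lowest day 20 array was well above the adult ones. Replicate 2 was also the lowest day 20 array for 12 of 12 pan-endocrine genes, but for 2 of 11 genes of dividing cells and 1 of 10 acinar genes. What sets this array apart was not tested. Without it all 9 members were still called lower (background 7.42%). Their differences grew, as they had to with the lowest day 20 array left out, from -1.32 to -1.55 for Flt1 and from -1.66 to -1.98 for Plvap.

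The pan-endocrine mean varied between arrays, from 10.55 to 11.24 in adult and from 9.39 to 10.40 at day 20, so the fit was repeated with it as a covariate. All members kept a negative difference, and 8 of 9 passed, where 3.21% of all genes were called lower. Differences were wider than without it, with -3.25 for Apold1 (adjusted p = 1.2e-04), -2.14 for Emcn (0.0011), -2.13 for Cdh5 (0.0015) and -1.83 for Pecam1 (0.001). Tie1 did not pass, at -0.82 (adjusted p = 0.063). The covariate differs between the ages and its 12 genes may change within beta cells, so it is not a measure of endocrine share alone. Its values did not overlap between the ages, so the adjusted differences rest on extrapolation. Day 20 replicate 2 was the lowest day 20 array in both the covariate and the members. How far the wider differences rest on that array was not tested.

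Of 77 other measured genes of endothelial cells and vessel signalling, in 7 lists by role, 34 were lower and 4 higher in adult, against 10.9% and 11.8% of all genes. The median log2 difference of the 77 was -0.27. With the pan-endocrine covariate 19 of the 77 were called lower, against 3.21% of all genes. In that fit 1 of the 77 was called higher, as were 307 of 14506 genes.

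VEGF ligands did not follow Kdr and Flt1. Vegfa, the ligand that beta cells supply to islet vessels, had log2 signals of 11.69, 11.45 and 11.53 in adult and 11.21, 11.03 and 11.23 at day 20. It was 1.32-fold higher in adult (adjusted p = 0.021), but 3 of the 6 fits that left out an array (adult 1, adult 3 or day 20 replicate 2) did not call it, with adjusted p up to 0.08. Vegfb, a ligand of Flt1, had 11.08 ± 0.08 in adult and 10.20 ± 0.23 at day 20 (SD, n = 3), with no overlap of the ages, and was 1.84-fold higher in adult (adjusted p = 0.0015, up to 0.0078 with 1 array left out). In the fit with the pan-endocrine covariate, Vegfa had a log2 difference of 0.17 against 0.40 without it (adjusted p = 0.58). Vegfb had 0.82 against 0.88 and missed the threshold (adjusted p = 0.051). Vegfc, Vegfd and Pgf, the lymphatic ligands and placental growth factor, had differences of 0.09, -0.02 and -0.21 on the log2 scale and missed the threshold (adjusted p = 0.56, 0.89 and 0.13).

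Coreceptors of VEGF were lower in adult. Nrp1 (neuropilin 1), which binds VEGF-A beside Kdr, was 1.87-fold higher at day 20 (5.90 ± 0.09 in adult against 6.80 ± 0.32, SD, n = 3, adjusted p = 0.0036). Nrp2 was 1.37-fold higher at day 20 (adjusted p = 0.01), a smaller change, and it did not pass with the covariate (adjusted p = 0.21). Flt4, the VEGF-C receptor of lymphatic endothelium, had 5.72 ± 0.10 in adult and 5.81 ± 0.14 at day 20 and did not pass (95% interval of the log2 difference -0.33 to 0.14). Where 10.9% of all genes were called lower and 11.8% higher, limma called 0 of 5 measured angiopoietins and Tie partners. None of the 5 had an unadjusted p under 0.05. Their differences lay between -0.11 and 0.14, and 3 of the 5, Angpt1 among them, had mean signals under the first quartile at both ages.

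**Figure D3:**
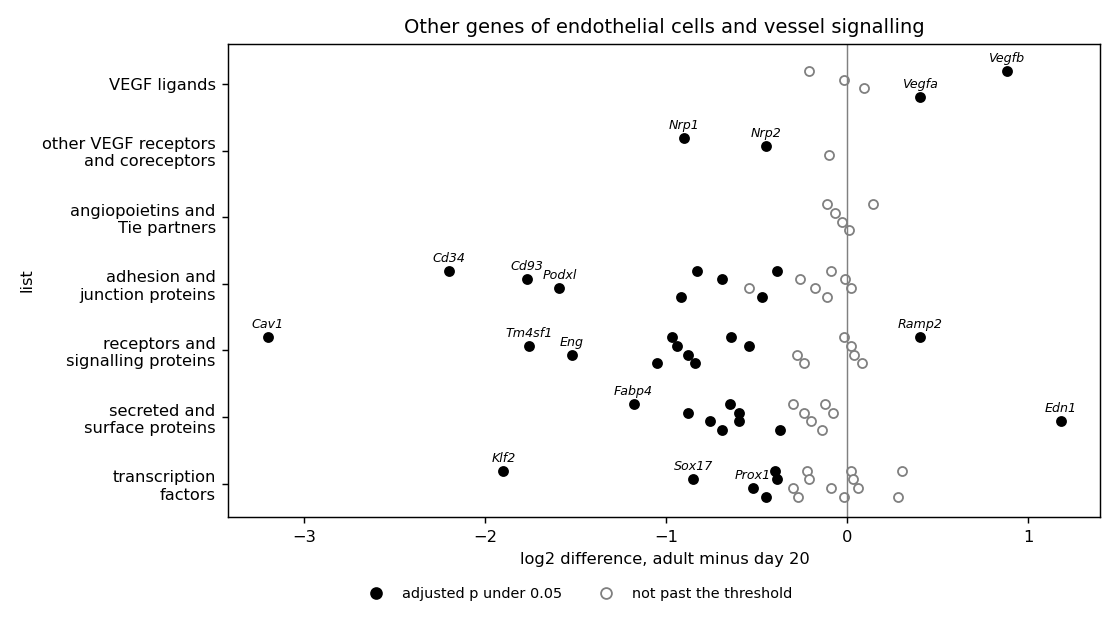
Log2 difference, adult minus day 20 (horizontal axis), of 77 other genes in 7 lists by role (vertical axis); filled points passed an adjusted p of 0.05 and open points did not, and points are staggered vertically for sight only. Most filled points lie left of 0, down to -3.20 for Cav1, and the 4 to the right are Vegfa, Vegfb, Ramp2 and Edn1.

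Adhesion and junction proteins fell in 8 of 15 cases, against 10.9% of all genes. Of the 8, Esam and Vcam1 were called in 1 of 6 fits with 1 array left out, Robo4 in 2 and the others in all 6. None of the 15 was called higher by limma, against 11.8% of all genes. Cd34, a sialomucin of capillary endothelium that stem and stromal cells also carry, had 4.96 ± 0.08 in adult and 7.15 ± 0.41 at day 20 (SD, n = 3), a 4.58-fold difference (adjusted p = 1.4e-04). Cd93, a C-type lectin of endothelial and myeloid cells, was 3.41-fold higher (adjusted p = 1.7e-04), and Podxl (podocalyxin), a sialomucin of the vessel lumen, 3.0-fold (adjusted p = 1.5e-04). The adult means of Cd34 and Podxl were only 0.03 and 0.29 above the mean first quartile, so these adult signals were weak. Not all genes known from endothelium moved. Cldn5, a claudin of endothelial tight junctions, had a log2 difference of -0.09 (95% interval -0.35 to 0.17), and Icam2, an adhesion molecule of resting endothelium, one of 0.02 (-0.20 to 0.23).

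Among receptors and signalling proteins 10 of 17 fell and 1 rose, against 10.9% and 11.8% of all genes. Of the 10 that fell, Acvrl1 was called in 2 of 6 fits with 1 array left out and the others in all 6. Cav1 (caveolin 1), abundant in endothelium but also in fibroblasts and smooth muscle, had 5.50 ± 0.14 in adult and 8.71 ± 0.56 at day 20 (SD, n = 3), a 9.21-fold difference (adjusted p = 8.1e-05). Tm4sf1, a membrane protein of endothelial and other cells, was 3.40-fold higher at day 20 (adjusted p = 1.7e-04), and Eng (endoglin), a coreceptor of the TGF-beta family, 2.88-fold (adjusted p = 7.5e-04). Ramp2, the partner of the adrenomedullin receptor, was 1.32-fold higher in adult (adjusted p = 0.047), a call that 5 of the 6 fits with 1 array left out did not make (adjusted p up to 0.15).

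Secreted and surface proteins fell in 8 of 15 cases, against 10.9% of all genes. Of the 8, Egfl7 was called in 1 of 6 fits with 1 array left out, Aqp1 in 3 and the others in all 6. Fabp4, a fatty acid-binding protein of capillary endothelium and fat cells, was 2.26-fold higher at day 20 (adjusted p = 0.002), with an adult mean of 4.69 under the first quartile. Gpihbp1, which carries lipoprotein lipase across capillaries, was 1.83-fold higher at day 20 (adjusted p = 0.0033) and Thbd (thrombomodulin) 1.69-fold (adjusted p = 0.01). The adult mean of Thbd, 4.57, also lay under the first quartile, so the measured folds of Fabp4 and Thbd may be too small. Edn1, the vasoconstrictor endothelin 1, went the other way. Its log2 signals were 11.87, 11.75 and 11.37 in adult and 10.34, 10.45 and 10.67 at day 20, which is 2.26-fold higher in adult (adjusted p = 8.5e-04). It also passed with the covariate (log2 difference of 0.95, adjusted p = 0.039). Nos3, the endothelial nitric oxide synthase, had 6.38 ± 0.15 and 6.50 ± 0.15 and did not pass (adjusted p = 0.52).

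Of the transcription factors 6 of 17 fell, against 10.9% of all genes. Klf2, which shear stress induces in endothelium and which lymphocytes and other cells also express, averaged 7.95 ± 0.24 in adult and 9.85 ± 0.13 at day 20 (SD, n = 3), a 3.73-fold difference (adjusted p = 6.3e-05). Its day 20 replicate 2 (9.79) was not the lowest of its age, unlike in the members, since replicate 3 had 9.76. Sox17, a factor of arterial endothelium, was 1.80-fold higher at day 20 (adjusted p = 0.0052). Prox1, a factor of lymphatic endothelium that pancreatic epithelium also expresses, was 1.43-fold higher (adjusted p = 0.043), which 5 of the 6 fits with 1 array left out did not call (adjusted p up to 0.14). The ETS factors Erg and Fli1 were lower in adult by 0.40 and 0.39 on the log2 scale (adjusted p = 0.039 and 0.037); they are named here because their family's words were searched. With 1 array left out, Erg was called in 1 of 6 fits and Fli1 in 2 of 6 (adjusted p up to 0.12 and 0.13).

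Other cell types could carry some of these genes, and their markers were read on the same arrays. Mural cells, the pericytes and smooth muscle that wrap vessels, had 4 of 12 markers lower in adult, against 10.9% of all genes. Their list means were 6.29 to 6.38 in adult and 6.55 to 6.79 at day 20. Rgs5, a pericyte marker, had 6.26 ± 0.10 in adult and 7.61 ± 0.27 at day 20 (SD, n = 3), a 2.54-fold difference (adjusted p = 3.8e-04). Pdgfrb was 1.57-fold higher at day 20 (adjusted p = 0.015, but 0.054 without day 20 replicate 1), while Cspg4 did not pass (adjusted p = 0.16). Fibroblast and stellate markers were lower in adult for 4 of 9, against 10.9% of all genes. Their list means were 5.95 to 6.15 in adult and 6.51 to 6.70 at day 20. The collagens Col1a1, Col1a2 and Col3a1 did not pass (limma adjusted p = 0.069, 0.32 and 0.42). Sparc, a matrix protein of fibroblasts that endothelium also makes, was 4.61-fold higher at day 20 (7.20 ± 0.29 in adult, 9.40 ± 0.38 at day 20, SD, n = 3, limma adjusted p = 2.3e-04). Dcn (decorin), a matrix proteoglycan of fibroblasts, was 2.88-fold higher (5.39 ± 0.25 and 6.92 ± 0.26, n = 3, limma adjusted p = 4.5e-04). Both had log2 differences, -2.21 and -1.52, within the range of the endothelial members. The other called genes, Lum and Fbln1, differed by -0.36 and -0.34. The part of mural cells and fibroblasts in the endothelial result was not tested.

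Leukocytes and platelets also carry Pecam1, and their part in its fall was not tested. Leukocyte markers passed for 1 of 11, Cd68, which was lower in adult, near the 10.9% of all genes called lower. List means were 5.67 to 5.75 in adult and 5.67 to 5.89 at day 20. Ptprc (CD45), which defines leukocytes, lay between 4.22 and 4.48 on all 6 arrays, under the first quartile, with a log2 difference of 0.01 (95% interval -0.21 to 0.23). Cd53 and Laptm5 had differences of -0.20 and -0.22 (adjusted p = 0.35 and 0.31). Where 10.9% of all genes were called lower and 11.8% higher, limma called 0 of 5 platelet markers. Of the 5, 2 had an unadjusted p under 0.05, both higher in adult. Platelet list means were 6.0 to 6.11 in adult and 5.84 to 5.98 at day 20. Pf4, Ppbp and Gp9 had differences of 0.03, 0.23 and 0.08. Of 4 erythroid markers 1 was called, Hbb, with 1.25-fold more in adult (adjusted p = 0.049, up to 0.17 with 1 array left out). Over all genes 11.8% were called higher.

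Genes of dividing cells also fell with age, in 11 of 11 cases against 10.9% of all genes. Their list means were 5.92 to 6.01 in adult and 7.50 to 7.90 at day 20. Top2a was 6.44-fold higher at day 20 (adjusted p = 2.6e-05), and Ccnb1 and Ccnb2 3.48-fold and 3.24-fold. How far the endothelial cells themselves were dividing was not tested.

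**Figure D4:**
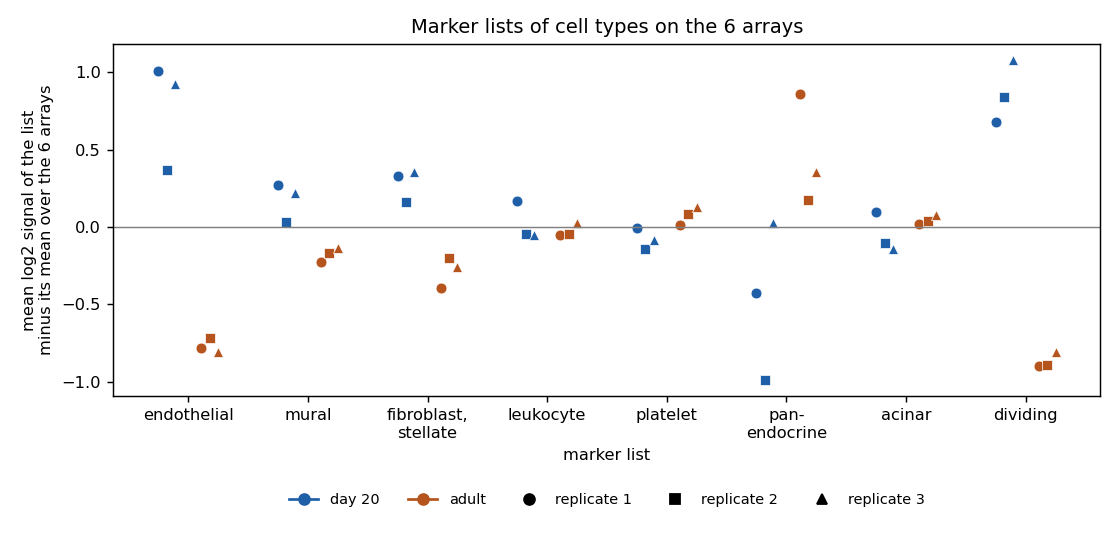
Mean log2 signal of 8 marker lists (horizontal axis) on each array, minus the mean of that list over the 6 arrays (vertical axis), for day 20 (blue) and adult (orange), with marker shapes for the replicate. The endothelial and dividing lists separate the ages most, mural and fibroblast lists do so by less, pan-endocrine genes run the other way, and leukocyte, platelet and acinar lists lie close to 0 on all arrays.

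The genes whose profile over the 6 arrays lay nearest to the mean profile of the members were found by root mean square distance, after each gene's own mean was subtracted. In order they were Ackr3, Podxl, Eng, Tmem176a, Ccl2, Tm4sf1, Cd93, Cenpt, Kif11 and Rgs5, with distances of 0.058 to 0.153 on the log2 scale. Members themselves had distances of 0.061 for Kdr and 0.092 for Pecam1, up to 0.439 for Tie1 and 0.527 for Apold1, whose changes were smaller and larger than the mean. Ackr3, an atypical chemokine receptor that scavenges CXCL12, had log2 signals of 6.35, 6.30 and 6.28 in adult and 7.95, 7.43 and 7.95 at day 20, with replicate 2 the lowest as in the members. It was 2.76-fold higher at day 20 (adjusted p = 3.1e-04). Ccl2, a chemokine that attracts monocytes, was 3.17-fold higher at day 20 (adjusted p = 9.8e-05). The 10 genes were chosen for likeness over these arrays, and the distance rests mostly on the age difference, so genes of cell division such as Cenpt and Kif11 are among them.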

How the data were processed

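Total RNA of 6 beta cell-enriched preparations was measured on whole-transcript arrays, 1 array per preparation. Per the submitters' processing notes the authors used RMA; the deposited log2 scale was inferred from the range of values, 1.73 to 14.7. No RMA version or probe annotation is given in the sources used here. Quantile normalization gives each array the same distribution, so a shift shared by most genes would be lost, and RMA compresses low signals.

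Of 29214 probe sets, 15310 had 1 gene symbol in the platform annotation, 323 had several and 13581 were not listed. Symbols were updated through RefSeq rat genes (15279 by Entrez identifier, 6 by accession, 25 kept). Where a gene had more than 1 probe set (527 genes), the brightest on average was kept, giving 14506 genes. Groups came from the sample titles. Adult was compared with day 20 across all genes with lmFit and eBayes of limma 3.58.1 (R 4.3.3), two-sided, Benjamini-Hochberg adjusted, threshold 0.05; the fit was tested on simulated data. With 3 arrays against 3 an exact permutation test cannot go below p = 0.1 and was not used. No filter on signal was applied. Promoters came from RefSeq (GRCr8). Tables were handled in Python 3.11.15 with pandas 2.3.3.

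The members, lists, tests and alternatives were chosen with earlier results of these data known. Genes named were all members and VEGF ligands, up to 3 lower and 3 higher genes past the threshold with the widest difference in each role list, markers from the first 3 measured of each cell type list (not all of them printed), and the 10 nearest profiles. Others (Flt4, Cldn5, Icam2, Nos3, Angpt1, Erg, Fli1, Cd68, Sparc, Dcn, Lum, Fbln1, Esam, Vcam1, Robo4, Acvrl1, Egfl7 and Aqp1) were named after their values were seen. The labels do not say whether arrays of the same number were paired. Deviations from the age means correlated over genes at -0.187, 0.194 and -0.211 for numbers 1, 2 and 3. Arrays of unlike number correlated at -0.295 to 0.371, and 3 arrays per age are too few to decide on pairing.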

Additional observations from a re-analysis of the deposited data

How the results depend on the processing

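The 9 members were refitted under 16 alternatives, 141 fits in all, since 3 of them (Apold1, Kdr and Tek) were absent once the lower 33.3% of genes by signal were removed. None reversed and 139 kept their call. The 2 others were those of Tie1, in a test against a 1.2-fold change (adjusted p = 0.094) and with the pan-endocrine covariate (0.063). Members called lower numbered 9, or 8 in those settings, and 6 of 6 under the signal filter. With 1 array left out all 9 were called each time, where 7.42% of all genes were called lower without day 20 replicate 2. Shares of all genes for the signal filter and the other left-out arrays are not given here. Some alternatives could hardly change a member. Averaging a gene's probe sets left the members' values as they were, since each had 1. A second quantile normalization and centring on medians acted on arrays that RMA had already made alike. With the replicate number as a block 9 members and 31 of 77 other endothelial genes were called lower and 3 of the 77 higher. Whether the numbers pair the arrays is not known.

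For the 77 other genes, the test against a 1.2-fold change called 20 lower and 2 higher, and the covariate 19 and 1, against 34 and 4. With 1 array left out, 25 to 34 were lower and 2 to 4 higher; the higher count was 2 without adult replicate 1, adult replicate 3 or day 20 replicate 2. Fewer calls follow from the stricter null in the first case, and the cause was not tested in the others. The median of all genes lay between 0.006 and 0.030 with all arrays and in the 10 alternatives that kept every array. Signals near the first quartile limit what can be said of adult levels of Apold1, Tek and Kdr.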
